A study of Mus musculus with 7 samples.

Results

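The accessible chromatin of 7 genes of tyrosine and tryptophan breakdown was mapped in mouse liver with 3 nucleases. The genes were Tat, Hpd, Hgd, Gstz1, Fah, Tdo2 and Kmo, of 22365 protein-coding genes on the chromosomes that the lists cover. A hotspot is a stretch where the cuts of a nuclease cluster above background, and every hotspot that overlapped 1 of these gene bodies or the 20 kb on either side of it was taken. The rule that took hotspots used position only, but the genes were chosen with earlier results of these data known. Tat is the example locus that the study itself shows. The windows gave 60 of 60910 Benzonase hotspots, 56 of 57675 Cyanase hotspots and 53 of 72286 DNase I hotspots, or 169 of 190871 in all. Hotspots of different lists connected by an overlap of at least 1 bp were merged, which gave 66 of 94491 regions. None of the 66 was shared between windows.

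All samples came from livers of male C57BL/6 mice aged 8 weeks, with no allele and no drug treatment named. Benzonase and Cyanase, endonucleases that withstand detergent, were applied to pulverized frozen tissue at 0.25, 1 and 4 U, with 1 library at each amount, and DNase I was applied to nuclei purified from fresh tissue. The labels list 1 DNase I sample, while the header of the deposited DNase I list names 2 libraries as pooled. The 3 deposited lists, 1 for each nuclease, give only the bounds of each hotspot in mm9, called from the pooled tags with the false discovery rate (FDR) held at 0%. The nuclease, the state of the tissue and the range of enzyme amounts pooled changed together between DNase I and the others. Their parts in any difference below cannot be told apart. Whether all libraries were sequenced together is not stated. Because each nuclease has 1 pooled list, there is no spread between replicates, no test between nucleases was possible, and the depth behind a hotspot is unknown. In whole tissue, fewer cells with an open site and less cutting per cell cannot be told apart.

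The TSS of all 6 hepatocyte markers (among them Alb and Apoa1) lay in hotspots of all 3 nucleases. Of the 5 genes typical of other tissues, 0 were marked so by Benzonase, 1 by Cyanase (Gfap) and 0 by DNase I. Of all protein-coding genes, 57.4% had a TSS in a hotspot of Benzonase, 55.7% of Cyanase, 47.4% of DNase I and 46.1% of all 3. For markers of the other liver cells, the counts differed between the Benzonase, Cyanase and DNase I lists. In that order, they were 0, 1 and 3 of the 4 Kupffer cell genes and 1, 1 and 0 of the 3 sinusoidal endothelial genes. They were 2, 3 and 0 of the 3 stellate cell genes and 2, 1 and 1 of the 3 bile duct genes. The part of these other cells in the hotspots described here was not tested.

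The liver disposes of surplus tyrosine in a chain of reactions. The aminotransferase Tat removes the amino group, the dioxygenase Hpd makes homogentisate, the dioxygenase Hgd opens its ring, the isomerase Gstz1 rearranges maleylacetoacetate, and the hydrolase Fah releases fumarate and acetoacetate. Loss of Fah causes hereditary tyrosinemia, and loss of Hgd causes alkaptonuria. Tryptophan enters the kynurenine pathway through the dioxygenase Tdo2, and the monooxygenase Kmo hydroxylates kynurenine further along. Tat and Tdo2 are classical liver genes induced by glucocorticoids. Regulatory proteins such as the glucocorticoid receptor, FOXA, HNF4, HNF1 and C/EBP act at open stretches of promoters and enhancers in hepatocytes, and such stretches are what nucleases cut first.

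The proximal promoters of these genes differed widely in base composition. Those of Tat, Hgd and Fah are shown to make that range visible. Each sequence holds the 250 bases before the TSS of the protein-coding transcript with the most exons, 5′ to 3′ on the strand of the gene, from the mm9 genome.
Tat, chr8:112514087-112514336, plus strand: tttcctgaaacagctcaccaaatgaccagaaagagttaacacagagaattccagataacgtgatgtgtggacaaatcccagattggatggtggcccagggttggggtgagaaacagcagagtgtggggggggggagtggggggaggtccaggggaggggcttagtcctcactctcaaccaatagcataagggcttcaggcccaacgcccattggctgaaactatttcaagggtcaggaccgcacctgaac
Hgd, chr16:37579989-37580238, plus strand: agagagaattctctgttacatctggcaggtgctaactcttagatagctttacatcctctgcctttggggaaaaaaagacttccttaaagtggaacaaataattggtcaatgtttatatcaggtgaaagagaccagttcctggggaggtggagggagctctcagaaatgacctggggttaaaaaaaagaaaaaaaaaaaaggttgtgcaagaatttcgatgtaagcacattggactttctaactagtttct
Fah, chr7:91754338-91754587, minus strand: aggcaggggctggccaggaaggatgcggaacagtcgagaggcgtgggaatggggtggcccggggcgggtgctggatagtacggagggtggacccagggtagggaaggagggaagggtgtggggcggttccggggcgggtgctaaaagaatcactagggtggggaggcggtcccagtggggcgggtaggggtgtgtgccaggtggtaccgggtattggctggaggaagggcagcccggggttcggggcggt
The GC content was 53.6% in the Tat sequence, 38.8% in the Hgd sequence and 68.4% in the Fah sequence, which held 3, 1 and 15 CpG dinucleotides. Over 300 bases, from 250 before to 50 after the TSS, the GC content was 41.0% for Hgd, 43.3% for Kmo, 46.3% for Tdo2, 53.7% for Tat, 61.7% for Hpd, 65.7% for Fah and 66.7% for Gstz1. The median of all 22365 promoters was 56.0% (quartiles 47.3 and 64.3%), so the genes of this pathway fell on both sides of it. Gstz1 and Fah also had the highest ratios of observed to expected CpG, 0.732 and 0.608, and Hgd the lowest, 0.162 (median of all promoters 0.556). Of the 250 bases before the TSS, 228 at Tdo2 and 89 at Gstz1 are annotated as untranslated region of a transcript. At Gstz1 the annotated gene itself starts at the TSS, and the neighbour Pomt2 on the opposite strand runs through these bases.

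Regions that only DNase I found, and regions that it did not find, also differed in their letters. Pairs from Tat, where the contrast was small, and Hpd, where it was large, are printed below. Each is the central 150 bases of the region in mm9 on the strand of the gene, with CpG dinucleotides in capitals.
Tat exons 2 to 3, DNase I alone, chr8:112515360-112515509: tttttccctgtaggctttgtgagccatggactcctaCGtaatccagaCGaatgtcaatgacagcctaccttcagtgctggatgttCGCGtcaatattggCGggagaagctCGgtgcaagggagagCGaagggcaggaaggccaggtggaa
Tat around exon 6, Benzonase and Cyanase, chr8:112518631-112518780: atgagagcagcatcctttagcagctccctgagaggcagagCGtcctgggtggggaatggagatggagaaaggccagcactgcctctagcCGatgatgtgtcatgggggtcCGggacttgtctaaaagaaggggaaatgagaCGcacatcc
Hpd upstream, DNase I alone, chr5:123637452-123637601: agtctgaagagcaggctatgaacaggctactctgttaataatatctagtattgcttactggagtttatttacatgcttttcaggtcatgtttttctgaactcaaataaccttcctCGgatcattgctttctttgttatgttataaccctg
Hpd exons 5 to 6, Benzonase and Cyanase, chr5:123630590-123630739: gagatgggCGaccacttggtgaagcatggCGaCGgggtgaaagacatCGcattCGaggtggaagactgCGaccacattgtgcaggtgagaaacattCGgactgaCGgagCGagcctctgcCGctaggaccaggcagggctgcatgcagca
The GC content was 53.3% and 56.0% in the Tat pair, with 7 and 4 CpG dinucleotides, and 36.0% and 59.3% in the Hpd pair, with 1 and 10. The Tat pair thus differed little in GC content, with more CpG in the region of DNase I alone, and the Hpd pair differed widely.

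All 7 genes had a TSS inside hotspots of Benzonase, Cyanase and DNase I alike. Across all protein-coding genes this held for 57.4% with Benzonase, 55.7% with Cyanase, 47.4% with DNase I and 46.1% with all 3 nucleases. Each of the 7 also had at least 1 hotspot of each nuclease in its window of gene body and flanks, as had 74.7% of all genes. The number of hotspots beyond the TSS set the genes apart more than its presence did.

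**Figure D1:**
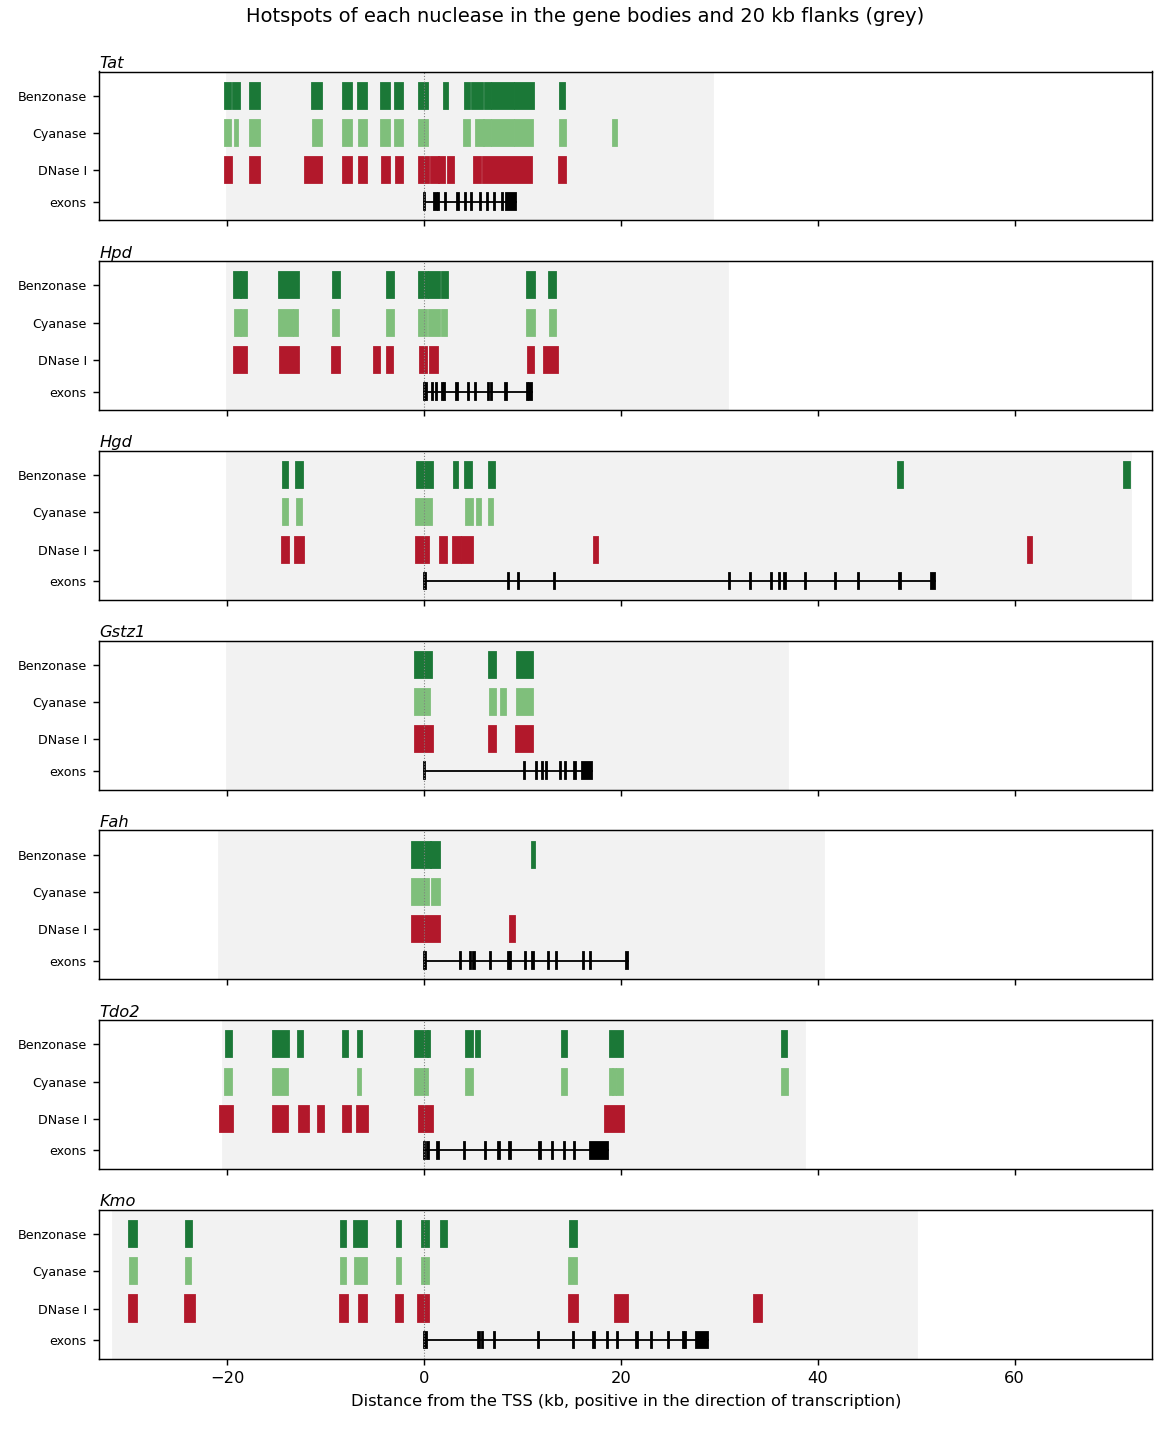
Hotspots of Benzonase, Cyanase and DNase I (colored blocks) along the 7 genes, by distance from the TSS in kb, with the exons of the transcript with the most exons in black (thin exons are drawn thickened) and the window of gene body and 20 kb flanks in grey. Hotspots of all 3 nucleases lie over each TSS, and Tat carries a nearly continuous block over its 3′ end that reaches 11132 bp from the TSS.

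In the window of Tat, 16 Benzonase, 16 Cyanase and 14 DNase I hotspots were found. Fewer hotspots than this were found at 98.7, 98.9 and 96.8% of all genes, respectively. The Tdo2 window held 12, 10 and 8, the Hpd window 10, 11 and 9, the Kmo window 8, 7 and 9 and the Hgd window 8, 6 and 8 hotspots of the 3 nucleases in the same order. Gstz1 and Fah, the last enzymes of tyrosine breakdown, had the fewest, with 3, 4 and 3 hotspots at Gstz1 and 3, 2 and 2 at Fah. The median over the 7 genes was 8, 7 and 8, against 3 in each list over all genes (quartiles 1 and 5 for Benzonase and Cyanase, 1 and 6 for DNase I). Gstz1 and Fah thus sat at the level of the typical gene and the other members above it.

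This order was not that of the window lengths. The Tat window spanned 49.4 kb and held 3.24 Benzonase hotspots per 10 kb, whereas the longest window, the 91.9 kb of Hgd, held 0.871. Hotspots of any list covered 38.1% of the Tat window, 21.1% of Tdo2, 20.3% of Hpd, 11.6% of Kmo, 9.79% of Hgd, 8.49% of Gstz1 and 6.07% of Fah. Long stretches without a hotspot of any list remained in the last 3. They measured 30482 bp at Hgd (chr16:37597871-37628352, within the gene), 29404 bp at Fah and 25960 bp at Gstz1. Over all 7 windows, 451.573 kb in total, Benzonase hotspots covered 11.3%, Cyanase hotspots 9.97% and DNase I hotspots 12.6%, although DNase I had the fewest.

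**Figure D2:**
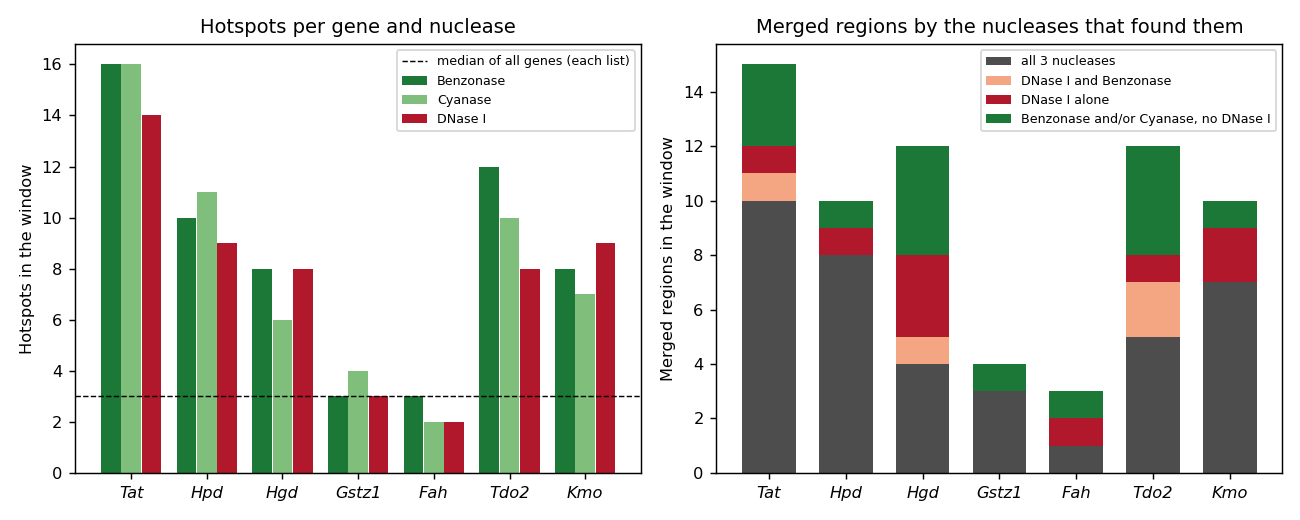
Left, number of hotspots in the window of each gene for each nuclease, with the median of all protein-coding genes as a dashed line (3 in each list). Right, number of merged regions in each window, split by the nucleases whose hotspots they hold. Tat has the highest bars, and Gstz1 and Fah lie near the median of all genes.

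The hotspots of the 3 lists overlapped at every TSS, but their bounds differed from gene to gene. At Tat (ENSMUSG00000001670.7, plus strand, chr8:112514337-112523703), the Benzonase hotspot ran from 497 bp upstream to 373 bp downstream of the TSS, the Cyanase hotspot from 511 to 365 bp and the DNase I hotspot from 529 to 440 bp. The 3 hotspots were 871, 877 and 970 bp wide and covered exon 1. At Hpd (ENSMUSG00000029445.7, minus strand, chr5:123621816-123632734), widths were 851, 804 and 712 bp over exons 1 to 2, so DNase I gave the narrowest.

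At Hgd (ENSMUSG00000022821.7, plus strand, chr16:37580239-37632106), the TSS hotspots were 1674 bp wide with Benzonase, 1551 bp with Cyanase and 1322 bp with DNase I. The difference lay downstream, where the Benzonase hotspot reached 927 bp past the TSS and the DNase I hotspot 515 bp. At Gstz1 (ENSMUSG00000021033.9, plus strand, chr12:88488668-88505673), widths were 1765, 1495 and 1849 bp. This stretch is shared, since the TSS of Pomt2 on the opposite strand lies 184 bp away inside the same hotspots.

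Fah (ENSMUSG00000030630.9, minus strand, chr7:91733669-91755232) had the widest TSS hotspots, at 1869 bp with Benzonase, 1697 bp with Cyanase and 2801 bp with DNase I. DNase I made 1 hotspot of a stretch in which Benzonase and Cyanase each called a second hotspot over intron 1, from 683 to 1611 bp and from 747 to 1575 bp past the TSS. Only 64 hotspots of the DNase I list were wider than the 1 at Fah.

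At Tdo2 and Kmo, in the tryptophan branch, the DNase I hotspot was shifted or extended against the others, as it was at Fah. At Tdo2 (ENSMUSG00000028011.9, minus strand, chr3:81761012-81780124), the Benzonase and Cyanase hotspots reached 930 and 931 bp upstream and 360 and 350 bp downstream, and the DNase I hotspot 553 bp upstream and 914 bp downstream. A further Benzonase hotspot of 264 bp, next to the first, reached 624 bp downstream. At Kmo (ENSMUSG00000039783.9, plus strand, chr1:177550512-177592247), they reached 220, 200 and 601 bp upstream for Benzonase, Cyanase and DNase I, and 486, 445 and 526 bp downstream. Over the 7 genes the median width of the TSS hotspot was 1291 bp with Benzonase, 1282 bp with Cyanase and 1322 bp with DNase I. The TSS hotspots of all genes had medians of 1251, 1160 and 852 bp. The members' widths ranged from 707 to 1869 bp with Benzonase, 646 to 1697 bp with Cyanase and 712 to 2801 bp with DNase I.

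**Figure D3:**
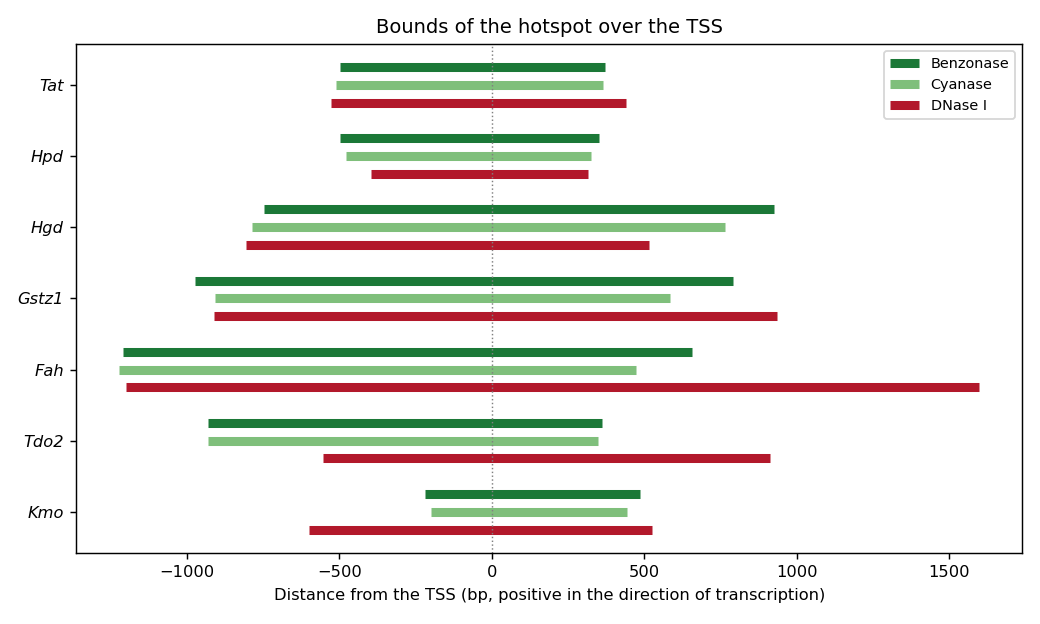
Extent of the hotspot over the TSS of each gene for each nuclease, by distance from the TSS in bp along the direction of transcription. The 3 hotspots overlap at every TSS, and the DNase I hotspot of Fah extends to 1600 bp past the TSS.

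Of the DNase I hotspots in the windows, 44 of 53 (83.0%, 95% Wilson interval 70.8 to 90.8) overlapped a Benzonase or Cyanase hotspot, against 63.0% in the whole DNase I list. In the other direction, 48 of 60 Benzonase hotspots (80.0%, interval 68.2 to 88.2) and 46 of 56 Cyanase hotspots (82.1%, interval 70.2 to 90.0) overlapped a DNase I hotspot, against 69.3% and 71.1% of the whole lists. The list values lie below the interval for DNase I and inside it for the others. Between the enzymes used on frozen tissue, 50 of 60 Benzonase hotspots (83.3%, interval 72.0 to 90.7) had a Cyanase partner, against 79.6%, and 53 of 56 Cyanase hotspots (94.6%, interval 85.4 to 98.2) had a Benzonase partner, against 85.4%. These intervals cover counting error only and treat hotspots of 1 window as independent, which they may not be.

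Of the 66 merged regions, 38 (57.6%, interval 45.6 to 68.8) held hotspots of all 3 nucleases, against 40.0% of the 94491 regions of the genome. DNase I alone accounted for 9 regions (13.6%, interval 7.34 to 23.9), against 28.3%. Regions without DNase I numbered 15 (22.7%, interval 14.3 to 34.2), against 26.3%, of which 7 held Benzonase and Cyanase, 5 Benzonase alone and 3 Cyanase alone. The 4 remaining regions, in the windows of Tat, Hgd and Tdo2, held DNase I with Benzonase, and 0 held DNase I with Cyanase. Regions of all 3 nucleases made up 8 of 10 at Hpd, 7 of 10 at Kmo, 10 of 15 at Tat and 3 of 4 at Gstz1, but 4 of 12 at Hgd, 5 of 12 at Tdo2 and 1 of 3 at Fah.

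Of the 26 regions upstream of a TSS, 21 held all 3 nucleases, and so did all 7 that spanned a TSS, while 10 of the 33 regions downstream did. When every region of the genome was paired with each gene whose window it fell in, all 3 nucleases were held by 47.4% of the regions upstream, 81.8% of those over a TSS and 42.3% of those downstream. In these windows the shares were 80.8% upstream and 30.3% downstream, further apart than over all genes. Of the 15 regions without DNase I, 14 lay downstream of the TSS (93.3%), compared with 68.2% over all such pairs. Of the 9 regions of DNase I alone, 7 lay downstream (77.8%, against 72.9%). These splits describe few regions and were added after the values were seen.

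Tat had the most upstream regions, 8 in number, of which 7 were found by all 3 nucleases. They lay 2119 to 2956, 3454 to 4387, 5760 to 6693, 7289 to 8287, 10395 to 12110, 16640 to 17731 and 19578 to 20267 bp before the TSS. The nearest of them, chr8:112511381-112512218, is shown by its central 300 bases on the plus strand, with the only matches to the motifs searched, ACANNNTGT and TGTTTGC (here on the opposite strand), in capitals.
Tat upstream, chr8:112511650-112511949: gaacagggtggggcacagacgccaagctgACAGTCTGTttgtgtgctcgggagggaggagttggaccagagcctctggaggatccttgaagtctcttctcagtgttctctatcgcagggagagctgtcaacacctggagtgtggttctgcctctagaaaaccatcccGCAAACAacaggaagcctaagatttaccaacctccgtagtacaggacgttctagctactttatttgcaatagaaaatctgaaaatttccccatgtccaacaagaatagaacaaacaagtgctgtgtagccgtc
The ACANNNTGT letters, a core of the glucocorticoid receptor element, ended 2650 bp before the TSS, and the FOXA letters ended 2514 bp before it. At this region the Benzonase hotspot was 776 bp wide, the Cyanase hotspot 838 bp and the DNase I hotspot 669 bp.

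Within the Tat gene the lists parted more. DNase I alone marked 794 bp over exons 2 to 3 (chr8:112515038-112515831). Around exon 4, DNase I hotspots of 609 and 673 bp and a Benzonase hotspot of 469 bp overlapped, with no Cyanase partner. Around exon 6, a Cyanase hotspot of 619 bp enclosed a Benzonase hotspot of 443 bp, with no DNase I partner. From exon 8 to beyond the 3′ end, a stretch of 6236 bp (chr8:112519234-112525469) held 4 Benzonase, 4 Cyanase and 2 DNase I hotspots. DNase I covered most of it with 1 hotspot of 4984 bp (chr8:112520298-112525281), and only 4 hotspots of its list were wider. The widest Benzonase and Cyanase hotspots there, over exons 10 to 12, were 2258 and 2291 bp, with 1076 and 735 wider in their lists.

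Hotspots over the 3′ end of the transcript were also found at Hpd, where Benzonase and Cyanase hotspots of 838 and 784 bp lay over exons 13 to 14 and a DNase I hotspot of 542 bp over exon 14. The transcript end lay in hotspots of all 3 nucleases at 2 of the 7 genes, Tat and Hpd, compared with 2.03% of all genes. At Tdo2 it lay in a DNase I hotspot of 1928 bp, while 1 Benzonase hotspot of 1354 bp and 3 Cyanase hotspots of 251 to 541 bp lay beyond the gene without reaching it. At Hgd, Gstz1, Fah and Kmo the transcript end lay in no hotspot. This measure was added after the Tat values were seen.

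At Hpd, 5 regions lay upstream, and 4 of them were found by all 3 nucleases, from 3029 bp before the TSS to 19296 bp. The fifth, 4520 to 5066 bp before the TSS, was found by DNase I alone (547 bp) and is the AT-rich sequence printed above. The 610 bp over exons 5 to 6 were found by Benzonase and Cyanase but not DNase I. A TSS of a neighbour, Setd1b (plus strand, chr5:123613390), fell in the Hpd window but in no hotspot. It lies inside the annotated Setd1b gene, which starts at chr5:123592202, outside the window. That start was not examined here.

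At Hgd, 7 regions lay inside the gene and only 2 upstream, 12232 to 13105 and 13746 to 14481 bp before the TSS, both found by all 3 nucleases. Intron 1 held 5 regions, each found by a different set of nucleases. DNase I alone marked 694 bp from 1613 bp past the TSS, DNase I and Benzonase marked 782 bp, all 3 nucleases 1158 bp, Cyanase alone 479 bp and Benzonase with Cyanase 622 bp from 6585 bp. Further on, DNase I alone marked 397 bp in intron 4 and 488 bp beyond the gene, and Benzonase alone 492 bp over exon 13 and 541 bp near the end of the window. Hgd thus had 3 of the 9 regions of DNase I alone and 4 of the 15 without DNase I.

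Gstz1 and Fah had 0 regions upstream of the one at the TSS. In Gstz1, all 3 nucleases marked 759 bp of intron 1 and 1689 bp around exon 2, and Cyanase alone marked 483 bp of intron 1. In Fah, DNase I alone marked 565 bp over exon 7 and Benzonase alone marked 335 bp over exon 9.

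At Tdo2, 6 regions lay upstream, of which 3 were found by all 3 nucleases, 2 by DNase I with Benzonase and 1 by DNase I alone (671 bp, 10161 to 10831 bp before the TSS). All 4 regions without DNase I lay downstream. Of these, 2 in intron 4 measured 395 bp (Benzonase) and 690 bp (Benzonase and Cyanase), 1 over exon 10 measured 543 bp, and 1 beyond the gene measured 603 bp. At Kmo, all 5 regions upstream of the TSS used here were found by all 3 nucleases, and 3 of them lay in the annotated gene, which has transcripts that start further upstream. The region 5769 to 7118 bp upstream covers the TSS of the neighbour Fh1, the fumarate hydratase gene. Benzonase alone marked 555 bp of Kmo intron 1, and DNase I alone 1385 bp around exon 9 and 797 bp beyond the gene.

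Where a region held exactly 1 hotspot of each nuclease (32 regions of the windows), DNase I hotspots had a median width of 885.5 bp, Benzonase hotspots of 768 bp and Cyanase hotspots of 746 bp. The DNase I hotspot was wider than its Benzonase partner in 19 of 32 (59.4%) and by a median of 56.5 bp. Over the 33922 such regions of the genome it was wider in 46.9%, and the median difference was -14 bp. The differences ran from -394 bp at Kmo to 793 bp at Hpd, and both directions occurred within Tat, Hpd, Hgd, Tdo2 and Kmo. Benzonase hotspots were wider than Cyanase hotspots in 24 of 32 (75%, against 68.1%), by a median of 42 bp. Midpoints differed by a median of 48.5 bp between DNase I and Benzonase and 26.2 bp between Benzonase and Cyanase, close to the 49.5 and 25 bp of all matched regions.

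**Figure D4:**
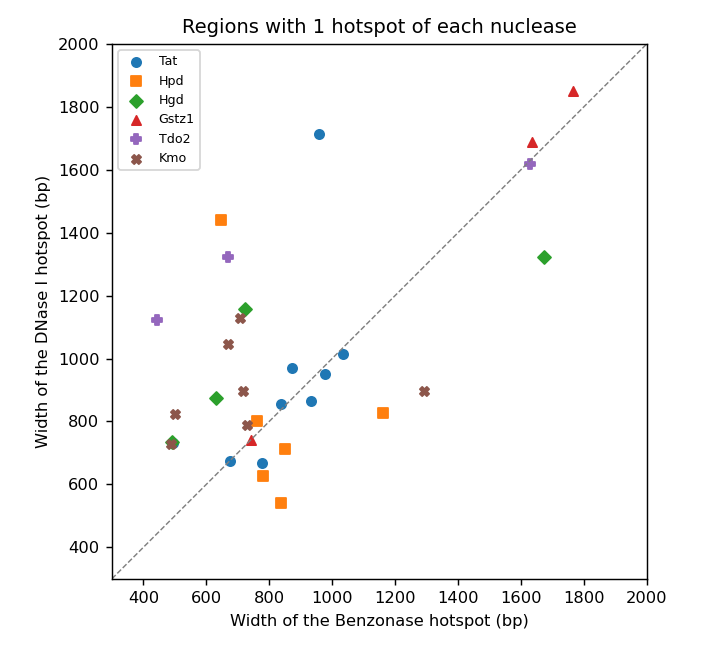
Width in bp of the DNase I hotspot against that of the Benzonase hotspot in the 32 regions with exactly 1 hotspot of each nuclease, by gene. Fah has no such region, the dashed line marks equal widths, and 19 of the 32 points lie above it.

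The GC content of the regions differed by class in these windows. Its median was 50% in the 15 regions without DNase I (range 40.8 to 55.6), 43.4% in the 9 of DNase I alone (38.9 to 47.7) and 45.6% in the 38 of all 3 nucleases (36.0 to 57.0). The ranges overlapped. Over the genome, the medians of the same classes were 54.3, 42.3 and 49.4%, so the order was the same with a wider gap. In the central 150 bases the medians were 52.7% without DNase I and 44.0% for DNase I alone in the windows. Per base, the 9213 bp that only DNase I covered inside shared regions had a GC content of 40.0%, and the 42045 bp that it covered together with another nuclease 47.1%. Over the genome the same values were 42.1 and 51.1%, a wider gap than in these windows.

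Genes differed in this too. At Tat the region of DNase I alone had 47.7%, and the 3 without DNase I 50 to 52.7%. At Hgd the classes overlapped, with 39.8, 42.2 and 47.1% in the regions of DNase I alone and 46.8 to 54.0% in the 4 without DNase I. At Hpd the region of DNase I alone had 40.2% and that without DNase I 55.6%, and at Fah the values were 43.4 and 51.3%. At Tdo2 the region of DNase I alone had 38.9%, and the 4 without DNase I ranged from 40.8 to 53.8%. At Kmo the gap was small, with 46.2 and 46.7% against 48.3%. Whole windows ranged from 39.1% GC at Tdo2 to 49.4% at Hpd, so the class of a region and the gene it lay in cannot be fully told apart with so few regions.

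**Figure D5:**
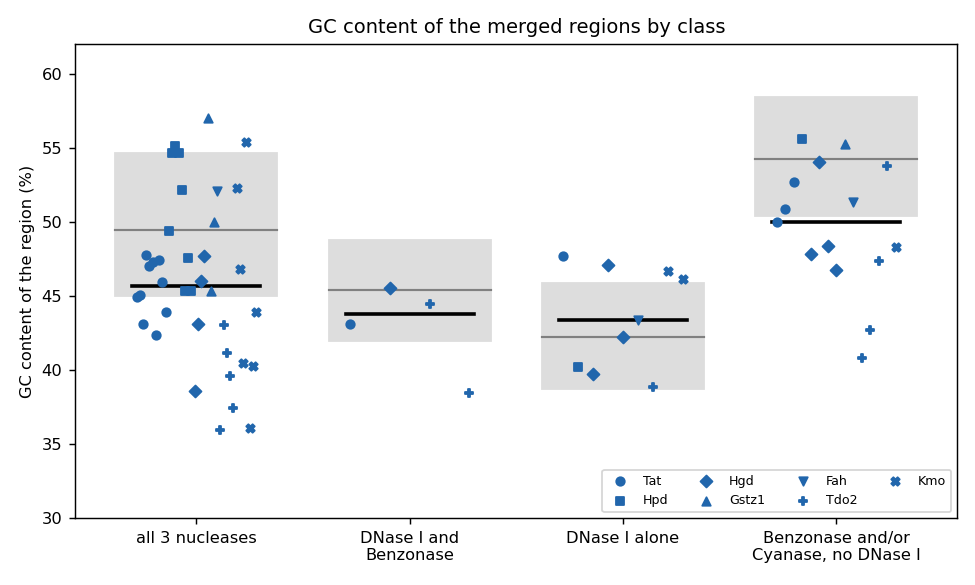
GC content in percent of each of the 66 merged regions by class, with a marker for each gene, the median of the windows as a black line, and the median and quartiles of all regions of the genome as a grey line and box. The 15 regions without DNase I have a median of 50% and the 9 of DNase I alone 43.4%, with overlapping ranges.

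Motifs were searched on both strands in the promoters (300 bases) and in the central 300 bases of each region. Of the 7 promoters, only that of Tdo2 held a match. The ACANNNTGT letters of the glucocorticoid receptor, here ACAAGCTGT starting 156 bp before the TSS, overlapped the FOXA letters TGTTTGC on the opposite strand, whose match starts 160 bp before it. This stretch lies within the annotated Tdo2 gene, which starts further upstream than the TSS used here. Of the 250 bases before that TSS, 228 are annotated as untranslated region of a transcript. Of all promoters, 5.77% held ACANNNTGT and 7.38% held TGTTTAC or TGTTTGC.

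In the central bases of the 66 regions, ACANNNTGT was found in 9 (13.6%, against 9.42% of all regions) and the FOXA letters in 11 (16.7%, against 14.3%). C/EBP (TTGCNNAAT) was found in 4 regions (6.06%, against 5.30%), HNF1 (GTTAATNAT) in 1 (against 1.79%), the cyclic AMP response element (TGACGTCA) in 1 (against 0.684%) and HNF4 (CAAAGTCCA) in 0 (against 1.55%). These shares are near those of all regions. Both ACANNNTGT and FOXA letters occurred together in the central bases of 4 regions. At Tat the region lay 2119 to 2956 bp upstream, and at Hpd 3029 to 3807 bp upstream. At Tdo2 it lay 10161 to 10831 bp upstream, and at Kmo around exon 6. The region over the Tdo2 TSS is not counted among them. It holds the overlapping matches of the Tdo2 promoter, but the FOXA match runs past its central bases. The share of all regions that hold both was not computed, so the count of 4 has no background to be set against. A match is a run of letters and not a bound site.

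Beyond the 7 genes, the TSS of 7 of 7 further genes of phenylalanine and tyrosine metabolism, such as the aminotransferase Got1 and the pterin reductase Qdpr, lay in hotspots of all 3 nucleases. Of 12 further genes of tryptophan metabolism, 11 were marked at a TSS by Benzonase, 10 by Cyanase and 10 by DNase I. Of all protein-coding genes, 57.4% were marked by Benzonase, 55.7% by Cyanase, 47.4% by DNase I and 46.1% by all 3. The exceptions were Ido1, an inducible dioxygenase that acts on tryptophan outside the liver as well, which was marked by Benzonase only, and Tph1, the hydroxylase that leads to serotonin in the gut and pineal gland, which was marked by none. With their windows of gene body and flanks, Ido1 still held 5 Benzonase, 6 Cyanase and 5 DNase I hotspots, and Tph1 1 of each.

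The limit of 20 kb cut through few hotspots. At Tat, 1 hotspot of each list crossed the upstream limit, and at Tdo2 the DNase I hotspot of 1322 bp did. Just inside, the Benzonase hotspot at the far end of the Hgd window ended 180 bp before the limit. Just outside, a DNase I hotspot began 471 bp past the same limit, and at Hpd a DNase I hotspot began 779 bp past the upstream limit. Past Tat on the downstream side, the next DNase I hotspot was 44274 bp beyond the limit, and the next Benzonase hotspot 59444 bp. On its upstream side, the next Benzonase and Cyanase hotspots lay 7896 and 7917 bp beyond the limit. The next DNase I hotspot there lay 101628 bp beyond it.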

How the data were processed

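Hotspot lists of 3 nucleases were used, each called by the authors on the pooled tags of that nuclease. As far as the methods and the deposited headers say, tags were aligned to mm9 with Eland or Bowtie, and hotspots were kept at an FDR of 0% above a threshold set at the mode of the tag densities, adjusted for input and left unmerged. The deposited values are start and end positions only, so tag numbers and tag densities were not analysed here. There were 0 columns of other samples.

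Printed positions count from 1. Gene bodies and transcripts were taken from GENCODE release M1 and sequence from NCBIM37, the same build as mm9. A gene was counted as marked when the TSS of any of its protein-coding transcripts lay in a hotspot. Positions along a gene were measured from the TSS of the protein-coding transcript with the most exons, and regions of the genome were paired with every gene whose window they fell in. The genes named are the 7 members, the other pathway genes not marked by every nuclease, examples of those marked, and genes whose TSS lies in a window. In the list of other pathway genes, 1 gene is not reported here and was left out of the counts. The members, gene lists and measures were chosen with earlier results of these data known. Shares carry 95% Wilson intervals. Merging was tested on simulated lists and gave 94491 regions, as did bedtools 2.31.1. Python 3.11.15, numpy 2.4.6, scipy 1.17.1, pysam 0.24.0 and matplotlib 3.10.9 were used. The alternatives tried were other flanks, midpoints, an overlap of 50% of both hotspots, joining within 150 bp, leaving out narrow hotspots, leaving out Tat, other TSS definitions and the central 150 bp for GC content.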

Additional observations from a re-analysis of the deposited data

How the results depend on the processing

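Of 75 values recomputed under alternatives, 66 stayed within 1.5 times the reported count or difference or within the interval of the reported share, 9 moved further and 0 reversed. With the gene body alone the windows held 33 Benzonase, 28 Cyanase and 27 DNase I hotspots, and with flanks of 5 kb 39, 36 and 34, as shorter windows must hold fewer. Requiring an overlap of 50% of both hotspots lowered the share with a DNase I partner to 63.3% for Benzonase and 60.7% for Cyanase. Without narrow hotspots (those below the lower quartile of width in each list) the Cyanase share was 91.1%. The cause of these shifts in the shares was not tested. Shares of the whole lists were not recomputed under these settings, so those given above cannot be set beside them. Without Tat, the GC difference between regions without DNase I and those of DNase I alone was 5.54 percentage points (6.64 with Tat, 8.67 in the central 150 bp), and the median difference in width between matched DNase I and Benzonase hotspots was 84 bp. This last setting, the other TSS definitions for the pathway genes, and the side of a region with either TSS were chosen after the data were seen. All 7 genes kept a TSS in hotspots of every nuclease under each of the TSS and width alternatives. No paired analysis was possible because each nuclease has 1 pooled list, and for the same reason no replicate could be left out. Depth per hotspot is unknown, so a region missing from a list may have been cut below the threshold of that list.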
